A study of Mus musculus with 69 samples.

Results

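The genes described are the tumour necrosis factor (TNF) superfamily ligands and receptors whose mouse symbols are Tnf, or Tnfsf or Tnfrsf followed by a number. In kidney RNA of 65 mice, 32 such symbols had at least 100 reads in all, 12 ligands and 20 receptors, out of 24523 symbols counted. Family members under other names, such as Lta, Fas and Cd40, were not taken by this rule and are given as separate lists.

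TNF superfamily ligands are mostly made as membrane proteins of immune and epithelial cells, and several, TNF among them, are shed by proteases. Their receptors signal through TRAF adaptor proteins to NF-kB or, where they carry a death domain, can also start cell death. In lupus nephritis the family is known for B cell survival (Tnfsf13b, or BAFF), T cell costimulation (Tnfsf4 and Tnfrsf4) and tubular injury signalling (Tnfsf12, or TWEAK, and its receptor Tnfrsf12a).

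All mice were female NZB/W F1, a hybrid strain that develops lupus nephritis with age. The 30 young mice were 12 weeks old, and the 27 nephritic mice were 30 to 45 weeks old, with proteinuria of 300 mg/dl that had begun 2 to 3 weeks before. The 8 remission mice, aged 36 to 50 weeks, had been given cyclophosphamide, CTLA4Ig and anti-CD40L once proteinuria was above 300 mg/dl, and were taken 8 weeks later with proteinuria of at most 30 mg/dl. Anti-CD40L blocks CD40 ligand, itself a member of the superfamily but not 1 of the 32 genes. Young and nephritic mice were collected at 6 zeitgeber times, ZT0 (lights on), ZT4, ZT8, ZT12 (lights off), ZT16 and ZT20, and remission mice at ZT0 and ZT12. The libraries came in 2 sets. Set 1 was made up of 11 mice, 6 young and 5 with nephritis, taken at ZT0 or ZT12, and all other mice were in Set 2. Age and nephritis cannot be told apart between young and nephritic mice, nor can age and treatment in remission. In whole kidney, fewer cells of a type and less RNA per cell cannot be told apart either. Each original library is labelled as a separate mouse, so the p-values measure the spread between libraries so labelled.

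Libraries held 25257530 to 35744843 reads in young mice, 26596500 to 48075977 in nephritic mice and 13311278 to 21849912 in remission mice. Levels are reads per 1e+06 library reads after TMM scaling (CPM). Another 4 libraries are repeats of young or nephritic mice, and 3 of them were close to their originals (median chi-square over 13476 genes 1.81 to 2.75, against 0.455 for counting error alone). The fourth, labelled RX11RU, was nearer to mouse RX11LU (1.72) than to its own original (10.3). Some libraries labelled as different mice were nearer to each other than these repeats, though all above counting error. The nearest were nephritic mice RX12LU and RX11RL of ZT4 (0.894), young mice CR3LU and CR3LL of ZT12 (1.08) and remission mice s8 of ZT0 and s9 of ZT12 (1.23). All were kept as separate mice. The remission library labelled s9, of ZT12, had 27.1 CPM of the clock gene Arntl, where remission mice of ZT0 had 23.1 to 28.8 and the other ZT12 mice 3.2 to 4.9. Calls that were lost or gained without s9 are given so.

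An E-box, here the 6 bases CACGTG, is the DNA element that the clock proteins CLOCK and BMAL1 bind, and NF-kB sites carry much of the response to these receptors. RefSeq promoters (GRCm38.p6, 250 bases before to 50 after the start site) were at hand for 25 of the 32 genes and were searched on both strands, which read the same for CACGTG. The E-box was in 4 of the 25 (16%), namely Tnfrsf4, Tnfrsf8, Tnfrsf19 and Tnfrsf21, and in 8.09% of all 27025 genes with a promoter. The NF-kB consensus was in 3 of the 25 (12%), Tnfrsf8, Tnfrsf9 and Tnfrsf25, and in 9.55% of all genes. The 2 promoters printed are those of genes with an E-box whose levels over the day differed between young and nephritic mice, with the E-box in capitals. That of Tnfrsf21 is chr17:43016305-43016604, plus strand, with the E-box starting 5 bases before the start site. That of Tnfrsf4 is chr4:156013445-156013744, plus strand, with the E-box starting 74 bases before the start site of this promoter. The RefSeq gene start of Tnfrsf4, 156013595, lies before the E-box, which is thus inside the gene as positioned there. A match is a description of letters, and binding was not measured.
Tnfrsf21: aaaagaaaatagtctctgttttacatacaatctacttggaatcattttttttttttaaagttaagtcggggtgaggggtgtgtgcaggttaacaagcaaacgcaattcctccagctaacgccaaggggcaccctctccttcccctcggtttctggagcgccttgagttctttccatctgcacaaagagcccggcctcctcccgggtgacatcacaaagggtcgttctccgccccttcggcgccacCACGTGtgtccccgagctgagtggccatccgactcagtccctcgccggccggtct
Tnfrsf4: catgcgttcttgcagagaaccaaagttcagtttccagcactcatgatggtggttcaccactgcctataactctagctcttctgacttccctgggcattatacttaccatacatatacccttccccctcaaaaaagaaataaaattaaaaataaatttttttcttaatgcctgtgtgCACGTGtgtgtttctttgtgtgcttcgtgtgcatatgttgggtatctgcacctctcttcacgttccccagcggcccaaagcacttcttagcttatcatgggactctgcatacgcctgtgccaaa

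Levels of these genes spanned a wide range in young kidney. Per kilobase of exon the receptors Tnfrsf21, Tnfrsf1a and Tnfrsf12a had the highest medians, at 77.9, 31.5 and 19.6 CPM per kb. The most abundant ligands were Tnfsf10 at 7.25 and Tnfsf12 at 6.31 CPM per kb, whereas Tnfsf13b stood at 0.308 and Tnf at 0.177. Tnfsf8 (0.0186) and Tnfsf11 (0.0145) had few reads, and Tnfsf4, Tnfsf18 and Tnfrsf8 had a median of 0. In the shallowest young library a gene with no reads could still stand at up to 0.119 CPM, the level of 3 reads, which allows for counting error only.

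Most of the genes were higher in nephritic than in young kidney. Of 31 tested, all but Tnfrsf8, 21 were higher and 2 lower (edgeR's quasi-likelihood test with time of day and set as covariates, adjusted p at most 0.05). With no filter on low counts all 32 were tested, and 22 were higher and 2 lower. Over all 17521 genes tested, 28.1% were higher and 33.9% lower, 62.1% in all. The median log2 change was 0.89 over the 31 genes and -0.03 over all genes. Of 12 ligands 8 were higher and none lower, with a median of 1.53, and of 19 receptors 13 were higher and 2 lower, with a median of 0.84. In 1 of the 31, Tnf, every nephritic mouse stood above every young mouse, as in 0.885% of all genes, and none of the 31 had every nephritic mouse below (0% of all genes).

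**Figure D1:**
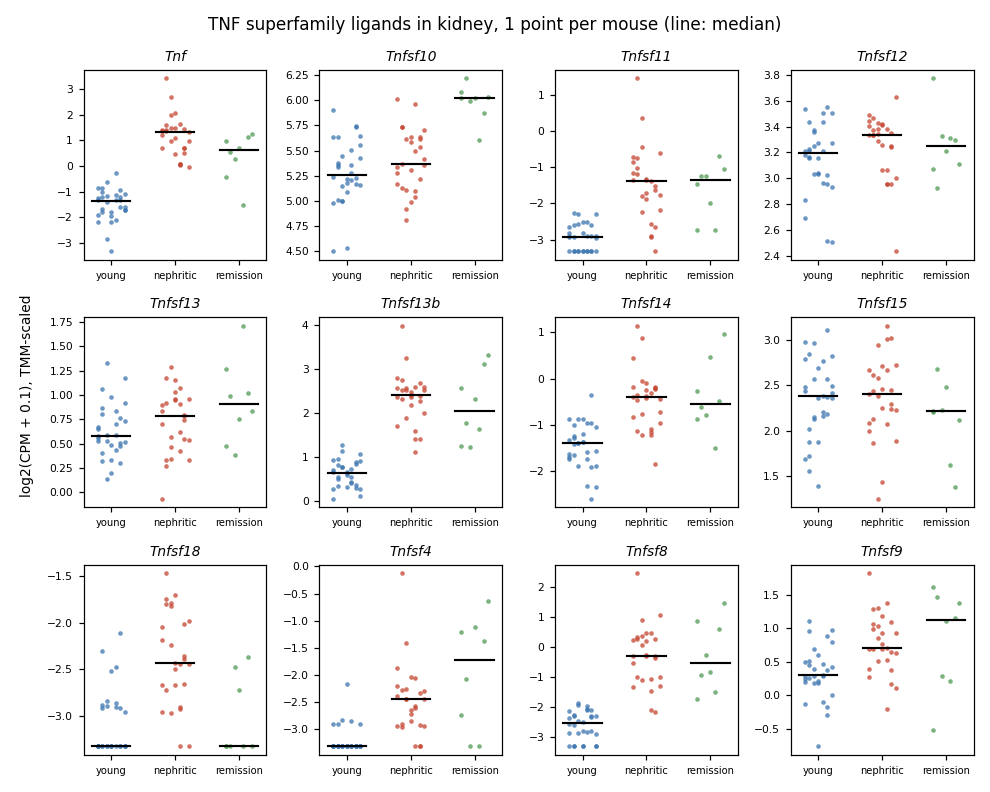
Levels of the 12 ligands as log2(CPM + 0.1), with 1 point per mouse in 30 young, 27 nephritic and 8 remission mice and a line at each median. All 27 nephritic mice lie above the highest young mouse for Tnf, while the groups overlap throughout for Tnfsf12 and Tnfsf15.

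Tnf encodes the inflammatory cytokine TNF, at chromosome 17, 35199367 to 35202007, minus strand (GRCm38.p6). The lowest, median and highest levels were 0, 0.289 and 0.722 CPM in young mice, 0.864, 2.45 and 10.6 in nephritic mice and 0.252, 1.46 and 2.27 in remission mice. Young and nephritic mice did not overlap, and the log2 change was 3.03 (SE 0.22, adjusted p = 2.56e-17).

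Tnfsf13b encodes BAFF, the survival factor of B cells, at chromosome 8, 10006229 to 10036000, plus strand. It ran from 0.938 over a median of 1.47 to 2.34 CPM in young mice, from 2.07 over 5.19 to 15.8 in nephritic mice, and from 2.24 over 4.11 to 9.91 in remission mice. A single nephritic mouse, RX7LU, came down into the young range. The log2 change was 1.82 (SE 0.10, adjusted p = 2.32e-21).

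Other ligands were barely present in young kidney. Tnfsf8, the ligand of CD30, had lowest, median and highest levels of 0, 0.0708 and 0.173 CPM in young mice, 0.121, 0.713 and 5.33 in nephritic mice and 0.199, 0.591 and 2.65 in remission mice. Most nephritic mice stood above all young mice, and the log2 change was 3.62 (SE 0.27, adjusted p = 5.61e-17). Tnfsf11, or RANKL, which drives osteoclast formation, stood at 0, 0.0323 and 0.108 CPM in young mice, 0, 0.282 and 2.64 in nephritic mice and 0.0497, 0.292 and 0.518 in remission mice. It had 30 reads in all young and 360 in all nephritic mice, and its log2 change was 3.21 (SE 0.36, adjusted p = 6.86e-11).

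Reads of the other costimulatory ligands were fewer still. Tnfsf4, the ligand of OX40, had 8 reads in all young mice, 24 of which had none, and 98 in all nephritic mice, 3 of which had none. Its median and highest levels were 0 and 0.122 CPM in young mice, 0.0832 and 0.816 in nephritic mice and 0.21 and 0.542 in remission mice, with a lowest of 0 in each group. Nephritic mice mostly lay within the young range, though fewer were at 0, and the fitted log2 change was 2.98 (SE 0.44, adjusted p = 8.64e-08 in edgeR). Tnfsf18, the ligand of GITR, had medians of 0, 0.0856 and 0 CPM in young, nephritic and remission mice, with highest levels of 0.132, 0.261 and 0.0942 and a lowest of 0 in each group. It had 19, 97 and 4 reads, and the log2 change in nephritic mice was 2.03 (SE 0.37, adjusted p = 4.72e-06). Both genes reached the filter of 100 reads mainly through the nephritic mice, as did Tnfsf11 and Tnfsf8 (61 young and 915 nephritic reads). With no filter the changes were 2.95 (adjusted p = 1.29e-07) for Tnfsf4 and 2.03 (adjusted p = 7.88e-06) for Tnfsf18.

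Tnfsf14, or LIGHT, a ligand of the receptor of Tnfrsf14, had a median of 0.281 CPM in young and 0.658 in nephritic mice, with overlapping ranges of 0.0661 to 0.685 and 0.181 to 2.1. The log2 change was 1.24 (SE 0.19, adjusted p = 1.21e-07). Tnfsf9, the ligand of 4-1BB, changed less, by 0.49 (SE 0.10, adjusted p = 7.09e-05).

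The remaining ligands did not pass the test, among them Tnfsf10 and Tnfsf12, the most abundant in young kidney. Tnfsf10, or TRAIL, which can start cell death, had lowest, median and highest levels of 22.5, 38.2 and 59.5 CPM in young mice and 28.02, 41.3 and 64.5 in nephritic mice, a log2 change of 0.11 (SE 0.07, adjusted p = 0.191). In Set 2 alone Tnfsf10 did pass, at 0.26 (adjusted p = 0.00345), and so did Tnfsf13, or APRIL, a plasma cell factor, at 0.24 (adjusted p = 0.023) where both sets gave 0.08 (SE 0.09). Tnfsf12 gave 0.09 (SE 0.06) and Tnfsf15, a T cell costimulator, 0.02 (SE 0.09). Tnfsf12 and Tnfsf13 lie side by side on the minus strand of chromosome 11 and are known to form a readthrough transcript, so the split of their reads is uncertain.

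**Figure D2:**
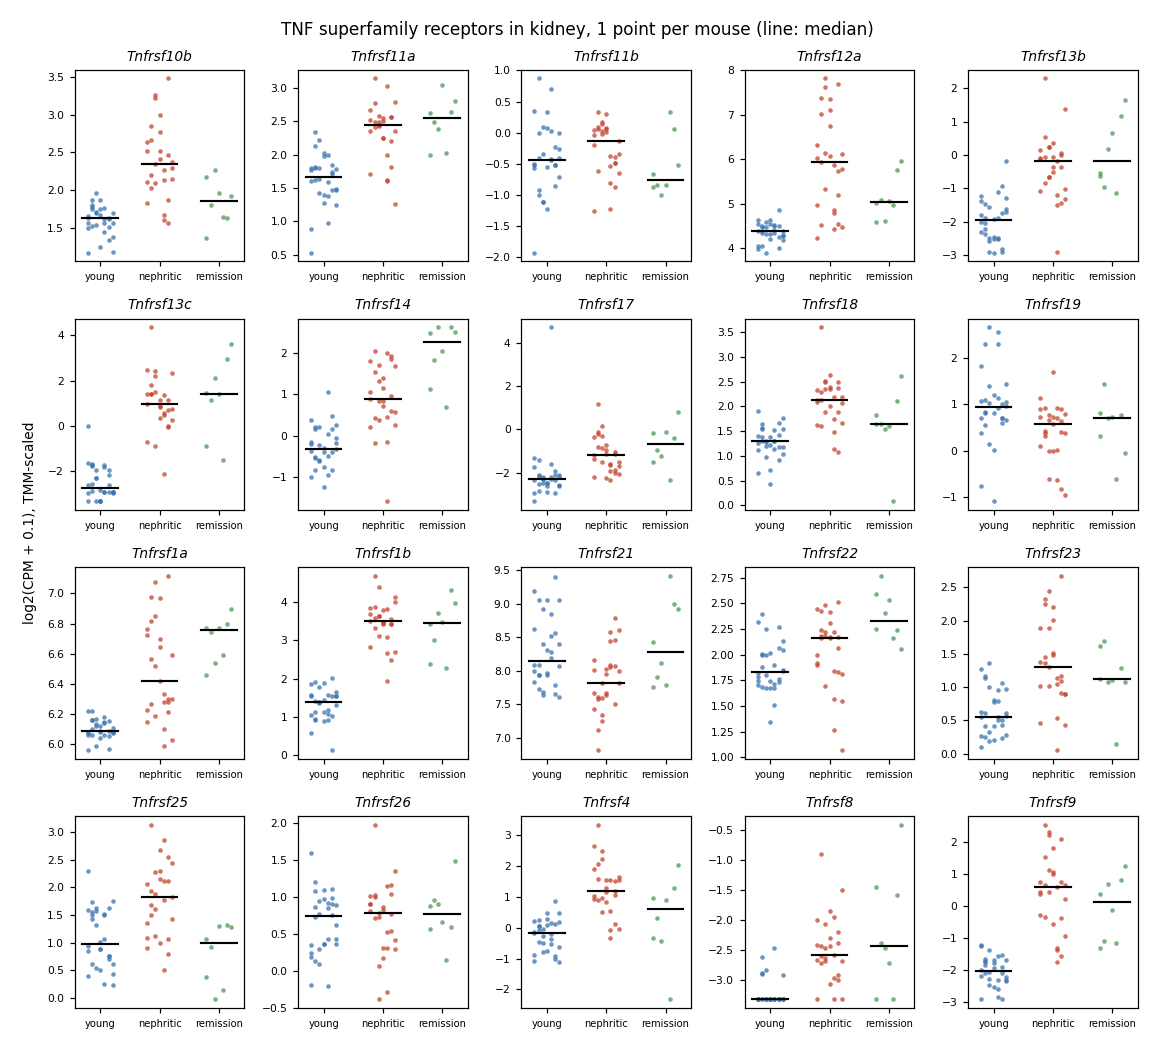
Levels of the 20 receptors as log2(CPM + 0.1), with 1 point per mouse and a line at each median. With all times of day together, Tnfrsf13c, Tnfrsf9 and Tnfrsf1b are higher in nephritic mice, Tnfrsf21 and Tnfrsf19 lower, and 1 young mouse stands alone in Tnfrsf17.

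Receptors of lymphocytes had the largest changes. Tnfrsf13c, the BAFF receptor of B cells, stood at a lowest, median and highest of 0, 0.0525 and 0.898 CPM in young mice, 0.132, 1.85 and 20.5 in nephritic mice and 0.252, 2.6 and 12.2 in remission mice. Its log2 change in nephritic mice was 4.45 (SE 0.38, adjusted p = 1.41e-14). Tnfrsf13b, or TACI, which binds both BAFF and APRIL, stood at 0.0322, 0.159 and 0.777 CPM in young mice, 0.0329, 0.788 and 4.8 in nephritic mice and 0.353, 0.818 and 3.03 in remission mice. Its groups overlapped more than those of Tnfrsf13c, and its log2 change was 2.24 (SE 0.27, adjusted p = 5.8e-10).

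Receptors of activated T cells were also higher. Tnfrsf9, or 4-1BB, stood at a lowest, median and highest of 0.0326, 0.143 and 0.326 CPM in young mice, 0.197, 1.41 and 5.68 in nephritic mice and 0.298, 1.0 and 2.27 in remission mice. All but a few nephritic mice were above the young range, and the log2 change was 3.36 (SE 0.29, adjusted p = 8.46e-15). Tnfrsf4, or OX40, stood at 0.361, 0.795 and 1.72 CPM in young mice, 0.701, 2.2 and 9.95 in nephritic mice and 0.101, 1.45 and 4.01 in remission mice, with a log2 change of 1.67 (SE 0.19, adjusted p = 6.99e-11). Tnfrsf18, or GITR, stood at 1.26, 2.35 and 3.63, at 2.02, 4.31 and 12.02, and at 0.958, 3.03 and 6.07 CPM in the same order of groups, with a log2 change of 0.89 (SE 0.10, adjusted p = 3.28e-10). For Tnfrsf4 and Tnfrsf18 the upper part of the nephritic mice lay above the young range and the rest within it.

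Both TNF receptors were higher. Tnfrsf1b, or TNFR2, found mainly on immune and endothelial cells, stood at a lowest, median and highest of 0.991, 2.53 and 3.92 CPM in young mice, 3.75, 11.3 and 25.6 in nephritic mice and 4.74, 10.8 and 19.7 in remission mice. Young and nephritic mice overlapped in 1 mouse of each group, and the log2 change was 2.21 (SE 0.12, adjusted p = 1.34e-21). Tnfrsf1a, or TNFR1, found on most cells, was far more abundant at 62.1, 67.9 and 74.5, at 63.3, 85.5 and 138.5, and at 87.8, 108.1 and 118.9 CPM in the same order. Its log2 change in nephritic mice was 0.41 (SE 0.06, adjusted p = 6.72e-08), and the difference between the 2 receptors in change was not tested.

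Tnfrsf12a, or Fn14, the TWEAK receptor that injured tubules induce, stood at a lowest, median and highest of 14.8, 20.8 and 28.98 CPM in young mice, 18.7, 61.3 and 225.4 in nephritic mice and 24.1, 32.6 and 62.4 in remission mice. The spread among nephritic mice ran from the young range to far above it, and the log2 change was 1.85 (SE 0.20, adjusted p = 1.79e-11). The summed tubular injury markers Havcr1 and Lcn2 had medians of 51.5, 232.6 and 117.6 CPM in young, nephritic and remission mice, and their part in the level of Tnfrsf12a was not tested.

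Tnfrsf14, or HVEM, the receptor of LIGHT, stood at a lowest, median and highest of 0.322, 0.702 and 1.97 CPM in young mice and 0.23, 1.76 and 4.05 in nephritic mice, with a log2 change of 1.38 (SE 0.18, adjusted p = 2.68e-09). Tnfrsf10b, the death domain receptor of TRAIL, stood at 2.16, 2.99 and 3.8 CPM in young mice, 2.86, 4.99 and 11.1 in nephritic mice and 2.48, 3.54 and 4.73 in remission mice, with a log2 change of 0.84 (SE 0.10, adjusted p = 2.93e-10). Nephritic mice of both genes overlapped the young range in their lower part. Tnfrsf11a, or RANK, the receptor of RANKL, changed by 0.76 (SE 0.10, adjusted p = 7.4e-09), whereas its decoy Tnfrsf11b, or osteoprotegerin, gave 0.13 (SE 0.15, adjusted p = 0.458).

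Tnfrsf25, or DR3, the receptor of Tnfsf15, changed by 0.72 (SE 0.14, adjusted p = 1.92e-05). Tnfrsf23, a decoy receptor of TRAIL, stood at a lowest, median and highest of 0.971, 1.37 and 2.48 CPM in young mice, 0.937, 2.37 and 6.26 in nephritic mice and 1.01, 2.07 and 3.12 in remission mice, a change of 0.84 (SE 0.14, adjusted p = 9.97e-07). Its neighbours Tnfrsf22 and Tnfrsf26 gave 0.17 (SE 0.08, adjusted p = 0.0719) and 0.09 (SE 0.13, adjusted p = 0.564). The 3 genes lie together on chromosome 7 and are related in sequence, and how far their reads can be told apart was not tested.

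Tnfrsf19 and Tnfrsf21 were lower in nephritic mice. Tnfrsf19, or TROY, stood at a lowest, median and highest of 0.367, 1.82 and 6.21 CPM in young mice, 0.417, 1.38 and 3.14 in nephritic mice and 0.555, 1.53 and 2.62 in remission mice, and fell by 0.66 on the log2 scale in nephritic mice (SE 0.20, adjusted p = 0.00357). Tnfrsf21, or DR6, a death domain receptor, stood at 195.9, 282.5 and 671.9 CPM in young mice, 112.6, 225.5 and 441.9 in nephritic mice and 216.6, 311.1 and 679.8 in remission mice, and fell by 0.41 (SE 0.10, adjusted p = 0.000283). No nephritic mouse of either gene lay above the young range, and the groups overlapped over most of it. The fall of Tnfrsf21 is an average over the day, and its time course differed between the groups, as given below. At ZT20 its median was 236.1 CPM in young mice (195.9 to 271.9) and 268.3 in nephritic mice (259.4 to 272.7). At each of the other times the nephritic median was the lower. All 4 proximal tubule markers were lower as well, with summed medians of 9229 CPM in young and 5445 in nephritic mice, and their part in the levels of Tnfrsf19 and Tnfrsf21 was not tested.

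Tnfrsf17, or BCMA, of plasma cells, did not pass, with a log2 change of 1.11 (SE 0.55, adjusted p = 0.0736). Young mouse ZT8RU had 684 reads of it, or 25.97 CPM, where the next young mouse had 0.297 and the median was 0.103. Nephritic mice had 0.0956, 0.342 and 2.17 CPM and remission mice 0.101, 0.536 and 1.62 as lowest, median and highest. Without ZT8RU, a choice made after seeing the data, the log2 change was 1.82 (SE 0.27, adjusted p = 8.49e-08). The 3 plasma cell markers summed to 9.11 CPM in ZT8RU, near the young median of 7.52.

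Other parts of the pathway, in lists drawn up apart from the 32 genes, are given beside the 28.1% of all genes that were higher and 33.9% that were lower in nephritic mice. Of 5 family ligands under other symbols that were tested, 4 were higher, with log2 changes of 3.15 (SE 0.22) for Ltb, lymphotoxin beta, 2.14 (SE 0.27) for Cd40lg and 1.84 (SE 0.24) for Fasl. Of 8 receptors under other symbols 7 were higher, with 2.71 (SE 0.14) for Relt, 1.64 (SE 0.18) for Eda2r and 1.45 (SE 0.17) for Cd27. Of 22 adaptors and signal transducers 15 were higher and 5 lower, among them Relb (1.64, SE 0.13) and Birc3 (1.32, SE 0.11). Of 10 NF-kB feedback and target genes 8 were higher, such as Vcam1 (3.05, SE 0.24) and Cxcl1 (2.62, SE 0.29), and 1 lower, the deubiquitinase gene Cyld. Of 4 genes for shedding and processing enzymes 2 were higher, Rhbdf2 (0.88, SE 0.09) and Adam17 (0.27, SE 0.04), and 1 lower, Furin.

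Markers of B cells, plasma cells, T cells, macrophages and dendritic cells were also higher in nephritic mice. Of 2 neutrophil markers tested, 0 were called. The 4 B cell markers summed to 1.03 to 22.3 CPM in young mice (median 1.83), 6.47 to 334.5 in nephritic mice (34.7) and 6.65 to 160.2 in remission mice (47.2). The 3 plasma cell markers measured summed to medians of 7.52, 191.1 and 329.7 CPM, the 5 T cell markers to 5.98, 20.6 and 23.01, and the 5 macrophage markers to 136, 374.5 and 347.9. No listed B cell, plasma cell, T cell, macrophage or dendritic cell marker was at 0 in every mouse of a group, and all of those tested were higher in nephritic than in young mice. Their part in the changes of the 32 genes was not tested. Nephritic mouse HIL5RU, of ZT12, had the highest sum of the B cell, plasma cell, T cell, macrophage and dendritic cell markers. It also had the highest nephritic level of Tnf, Tnfsf13b, Tnfsf8, Tnfsf11, Tnfrsf13c, Tnfrsf13b, Tnfrsf9 and Tnfrsf1b. Without it, the number of higher genes among the 31 was 20 and of lower genes 2.

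Ligands and their receptors were then compared across the 27 nephritic mice, on log2 CPM, for the 14 pairs of 17 with enough reads (2-sided permutation tests, adjusted over the 14). These mice were taken at 6 times of day, over which several of the genes differed, so r was also computed within times, with both genes centred at the mean of each time and permuted within it, a choice made after seeing the data. Tnf and Tnfrsf1b gave Pearson's r of 0.77 (permutation p = 1e-05, the smallest these permutations can give, adjusted 0.00014) and Spearman's rho of 0.75 (permutation p = 2e-05, adjusted 0.00028). The r was 0.68 without the mice farthest from the median of Tnf, HIL5RU and RX12LL, 0.77 in the 22 mice of Set 2 and 0.64 within times (permutation p = 0.00017, adjusted 0.00238). Tnf and Tnfrsf1a gave an r of 0.54 (permutation p = 0.0031, adjusted 0.0062), a rho of 0.55 (permutation p = 0.00304, adjusted 0.0106), 0.48 without the same mice, 0.56 in Set 2 and 0.63 within times (permutation p = 0.002, adjusted 0.014). Mice with more Tnf thus also had more of both receptors. The summed macrophage markers differed among these mice too, from 175.6 to 780.6 CPM. The part of immune cells in the r of any pair was not tested. Pairs of other genes were not examined, so no share stands beside the number of pairs that passed.

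Tnfsf13b went with each of its 3 receptors. With Tnfrsf13b r was 0.73 (permutation p = 4e-05, adjusted 0.00028) and rho 0.52 (permutation p = 0.00636, adjusted 0.0148), with Tnfrsf13c r was 0.72 (permutation p = 7e-05, adjusted 0.00028) and rho 0.61 (permutation p = 0.00112, adjusted 0.00523), and with Tnfrsf17 r was 0.69 (permutation p = 8e-05, adjusted 0.00028) and rho 0.54 (permutation p = 0.00419, adjusted 0.0117). Without HIL5RU and RX7LU, the highest and the lowest mouse in Tnfsf13b, r was 0.46, 0.46 and 0.54. In Set 2 it was 0.78, 0.58 and 0.49. Within times it was 0.55 (permutation p = 0.0282, adjusted 0.0564), 0.57 (permutation p = 0.0112, adjusted 0.0314) and 0.62 (permutation p = 0.00357, adjusted 0.0167), so that Tnfrsf13b missed the threshold. The 3 receptors are all markers of B lineage cells, whose summed markers also differed among these mice.

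Of the other pairs, 3 passed in r. Tnfsf9 and Tnfrsf9 gave an r of 0.62 (permutation p = 0.00056, adjusted 0.00157) and a rho of 0.63 (permutation p = 6e-04, adjusted 0.0042), with 0.68 without 2 mice and 0.58 in Set 2. Tnfsf11 and Tnfrsf11a gave 0.61 (permutation p = 0.00093, adjusted 0.00217) and 0.49 (permutation p = 0.0111, adjusted 0.0222), with 0.48 and 0.55. Tnfsf14 and Tnfrsf14 gave 0.47 (permutation p = 0.0149, adjusted 0.0261) and 0.38 (permutation p = 0.0539, adjusted 0.083), with 0.47 and 0.51, so that rho missed the threshold. Within times Tnfsf9 and Tnfrsf9 gave 0.50 (permutation p = 0.0211, adjusted 0.0492), while the other two pairs lost the call, at 0.44 (permutation p = 0.0381, adjusted 0.0667) and 0.22 (permutation p = 0.331, adjusted 0.463).

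The 6 remaining pairs did not pass. Tnfsf12 and Tnfrsf12a gave an r of 0.22 (permutation p = 0.283, adjusted 0.33) and a rho of 0.29 (permutation p = 0.147, adjusted 0.172), but passed within times, at 0.52 (permutation p = 0.00738, adjusted 0.0258). Tnfsf10 and Tnfrsf10b gave -0.17 (permutation p = 0.386, adjusted 0.416) and -0.05 (permutation p = 0.81, adjusted 0.81). Tnfsf13, which shares 2 receptors with Tnfsf13b, gave an r of 0.13 with Tnfrsf13b (permutation p = 0.517, adjusted 0.517) and -0.23 with Tnfrsf17 (permutation p = 0.252, adjusted 0.321). Tnfsf11 and Tnfrsf11b gave an r of 0.39 (permutation p = 0.0424, adjusted 0.066). Tnfsf15 and Tnfrsf25 gave an r of -0.33 (permutation p = 0.0908, adjusted 0.127) and a rho of -0.37 (permutation p = 0.0585, adjusted 0.083) in all mice, an r of -0.52 in Set 2 (permutation p = 0.0119, adjusted 0.0238) and 0.02 within times (permutation p = 0.94, adjusted 0.94). Both genes of a pair were read in the same library.

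Over the day, young mice were examined first. Of 26 genes tested, 8 differed over the 6 times (edgeR, adjusted p at most 0.05), as did 39.8% of 16521 genes. Tnfrsf21 had the smallest p. In the 7 mice of ZT12 it ran from 460.1 to 671.9 CPM with a median of 532, and the other 23 young mice lay between 195.9 and 395.3, with medians of 244.7 at ZT0, 220.3 at ZT4, 373.1 at ZT8, 313.9 at ZT16 and 236.1 at ZT20. No mouse of another time reached the ZT12 range, and the amplitude of a 24 h cosine was 0.56 on the log2 scale (SE 0.05, adjusted p of the test over times 2.84e-10).

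**Figure D3:**
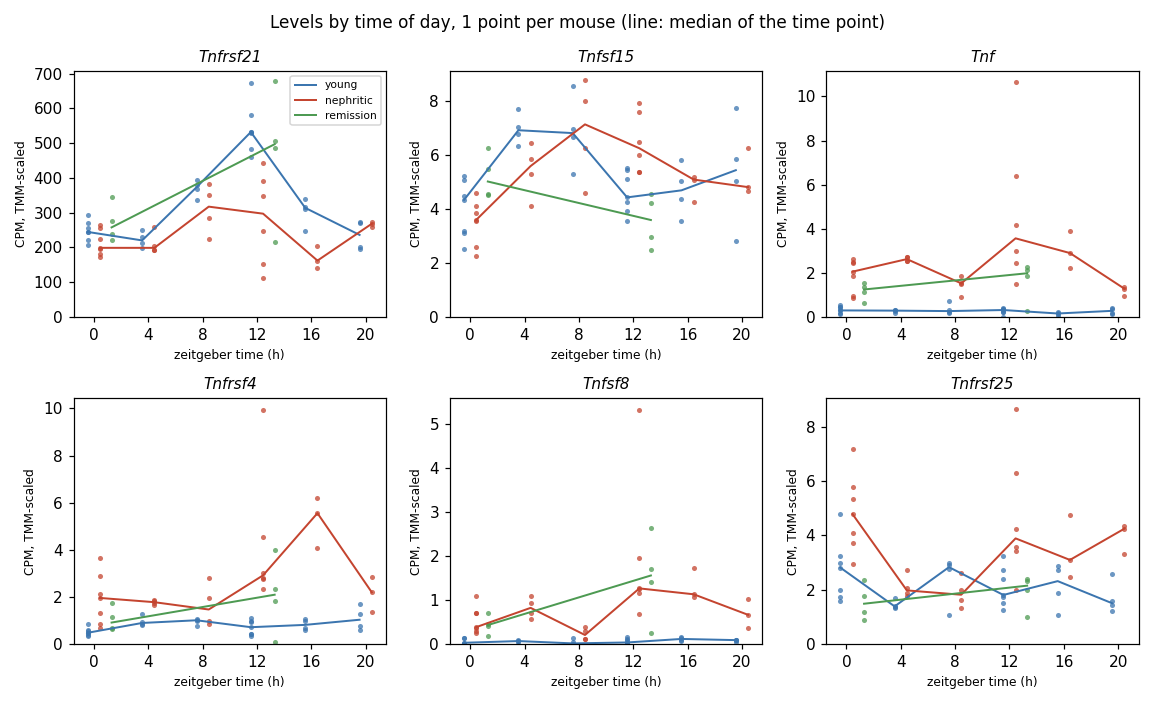
Levels in CPM on a linear axis by zeitgeber time in h for 6 genes, with 1 point per mouse and lines through the medians of each group. Tnfrsf21 reaches a median of 532 CPM at ZT12 in young mice and 297.3 in nephritic mice.

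Tnfsf15, a T cell costimulator, was highest in young mice at ZT4 and ZT8, where it ran from 6.34 to 7.72 and from 5.3 to 8.55 CPM, and lowest at ZT0 at 2.53 to 5.24 (adjusted p = 0.00174). The mice of ZT4 were all above those of ZT0, times picked after seeing the values. Tnfrsf12a had medians of 22.5, 17.3, 18.4, 22.01, 23.3 and 17.5 CPM from ZT0 to ZT20 (adjusted p = 0.00767). Tnfsf12, its ligand, was highest at ZT8 with 10.7 to 11.7 CPM and had medians of 8.07 to 9.3 at the other times (adjusted p = 0.0156).

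Several further genes passed in young mice, none of them steadily. The adjusted p was 0.0246 for Tnfrsf11a, 0.0314 for Tnfsf9 and 0.0492 for Tnfrsf25. Of the 30 fits with 1 young mouse left out, Tnfrsf11a passed in 28, Tnfsf9 in 24 and Tnfrsf25 in 8, with adjusted p of up to 0.0778, 0.0658 and 0.144. Tnfrsf17 passed (adjusted p = 7.83e-06) on mouse ZT8RU alone, without which fewer than 100 reads were left and the gene was not tested.

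In nephritic mice 7 of 29 genes tested differed over the 6 times, as did 21.6% of 16872 genes. These were Tnfrsf4, Tnfsf8, Tnf, Tnfsf15, Tnfrsf25, Tnfsf10 and Tnfrsf17. Tnfrsf4 ran from 4.07 to 6.19 CPM in the 3 mice of ZT16 and from 0.701 to 3.68 in the 7 mice of ZT0 (adjusted p = 0.0054), with no overlap between those times. Tnfsf8 ran from 0.7 to 5.33 CPM at ZT12 and from 0.121 to 0.392 at ZT8, again without overlap (adjusted p = 0.00762). Times said not to overlap or to stand apart, in young or nephritic mice, were picked after seeing the values. The share of all genes that separate so was not computed.

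Tnf in nephritic mice had medians of 2.06, 2.63, 1.53, 3.57, 2.9 and 1.29 CPM from ZT0 to ZT20 (adjusted p = 0.00806). The 6 mice of ZT12 ran from 1.52 to 10.6 and the 3 of ZT20 from 0.97 to 1.34, times also picked after seeing the values. Tnfsf15 had medians of 3.61, 5.6, 7.15, 6.26, 5.1 and 4.82 (adjusted p = 0.00892), lowest at ZT0 as in young mice. Its receptor Tnfrsf25 had 4.78, 1.98, 1.82, 3.89, 3.1 and 4.25 (adjusted p = 0.0178), and was thus low at ZT4 and ZT8, when Tnfsf15 was not.

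Some immune cell markers also differed over the day in nephritic mice, in 4 of 4 B cell, 3 of 3 plasma cell and 5 of 5 T cell markers. So did 1 of 4 dendritic cell, 0 of 5 macrophage and 0 of 2 neutrophil markers. The nephritic mice of 1 time are other mice than those of the next, and the part of these cells in the time courses of Tnf, Tnfrsf4 and Tnfsf8 was not tested.

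The difference in time course between nephritic and young mice was tested directly with group by time terms, and 5 of 31 genes passed, against 6.27% of 17521 genes. Tnfrsf21 (adjusted p = 0.0294) had medians of 199, 199, 317.5, 297.3, 162.3 and 268.3 CPM from ZT0 to ZT20 in nephritic mice, and at ZT12 the 6 nephritic mice ran from 112.6 to 441.9, all below the 7 young mice. At ZT16 nephritic mice (139.6 to 203.1) were also all below young mice (246 to 338.9), and at the other times the ranges overlapped. These 2 times were picked after seeing the values, and the share of all genes whose groups separate so at a time was not computed. The amplitude in nephritic mice was 0.16 (SE 0.13), and Tnfrsf21 did not pass over time in that group alone (adjusted p = 0.0698, and 0.00671 in Set 2 alone). Tnfrsf21 passed the test of the difference with each nephritic mouse left out, at adjusted p of 0.00765 to 0.045, and did not pass with a 24 h cosine in place of 6 times (0.226).

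The other genes with a different time course were Tnfrsf17 (adjusted p = 0.00112, and 0.0433 without ZT8RU), Tnfrsf4 (0.0406), Tnf (0.0421) and Tnfrsf13c (0.0492). The last 3 were close to the threshold. Of the 27 fits with 1 nephritic mouse left out, Tnfrsf4 passed in 14, Tnf in 11 and Tnfrsf13c in 6, with adjusted p of up to 0.0686, 0.0771 and 0.0831. Tnfrsf13c had medians of 1.58, 1.89, 0.983, 3.49, 5.34 and 1.53 CPM from ZT0 to ZT20 in nephritic mice. In young mice they were 0.0664, 0.08, 0.157, 0.0415, 0.0169 and 0.0996. Young mouse ZT8LL had 0.898 CPM of Tnfrsf13c, where the next young mouse had 0.223. ZT8LL also had the highest young sum of B cell markers (22.3 CPM). No young mouse but ZT8RU was left out in this test. Of the markers, 4 of 4 B cell, 3 of 3 plasma cell, 3 of 5 T cell and 2 of 2 neutrophil markers also passed, against 0 of 5 macrophage and 0 of 4 dendritic cell markers.

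Remission mice were compared with nephritic mice of ZT0 and ZT12. Of 29 genes tested 3 were higher and 3 lower in remission, and over 16344 genes 14.6% were higher and 16.5% lower, 31.1% in all. The median log2 change was 0.20 over the 29 genes and 0.00 over all genes. In none of the 32 genes did all 8 remission mice lie above all 27 nephritic mice (0.617% of genes) or below them (1.84%).

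**Figure D4:**
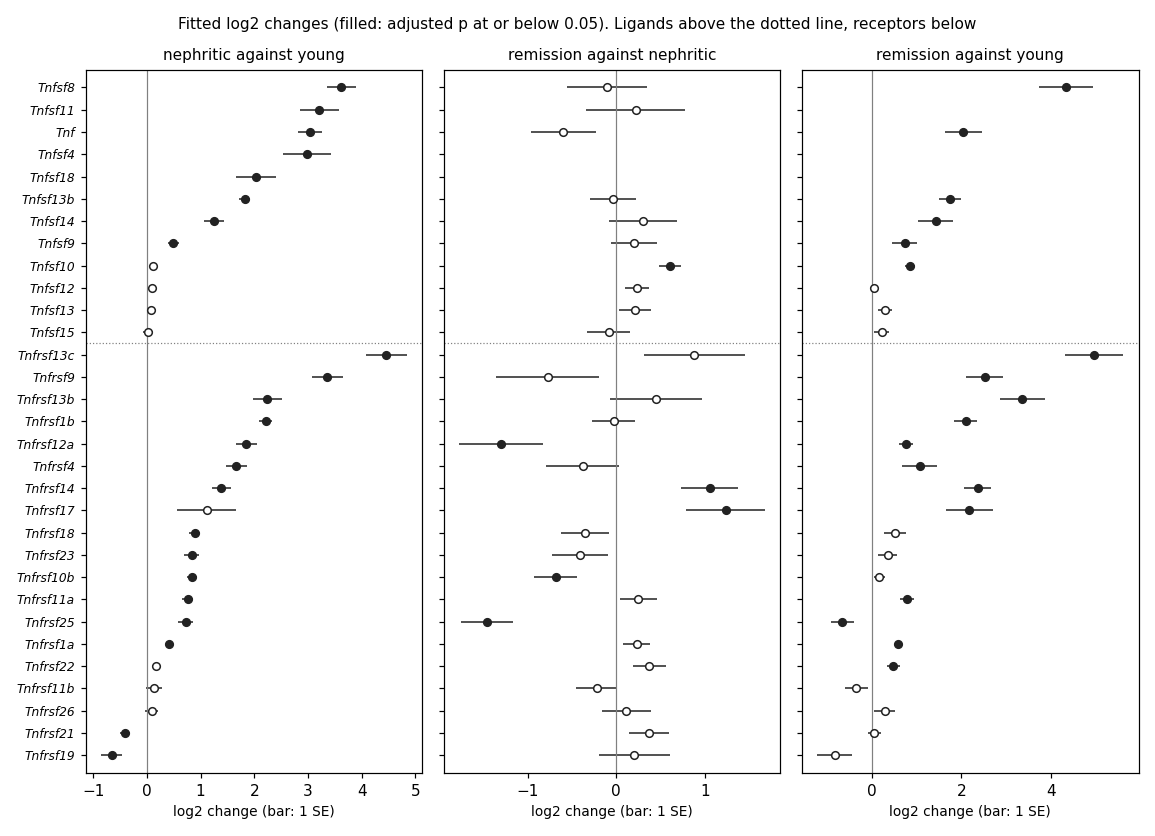
Fitted log2 changes with bars of 1 SE in 3 comparisons, with ligands above and receptors below the dotted line and filled points where the adjusted p is at most 0.05. Nephritic against young mice has 21 genes called higher, remission against nephritic mice 3 and remission against young mice 17.

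Tnfsf10, or TRAIL, had 48.5, 64.7 and 74.3 CPM as lowest, median and highest in remission mice, with a median above the highest nephritic mouse, and its log2 change was 0.60 (SE 0.13, adjusted p = 0.00155). Tnfrsf25, or DR3, had 0.881, 1.89 and 2.4 CPM in remission and 1.32, 3.44 and 8.66 in the 27 nephritic mice of all times. Against the nephritic mice of ZT0 and ZT12 alone, Tnfrsf25 fell by 1.46 (SE 0.29, adjusted p = 0.000952). Both passed with each remission mouse left out. Tnfrsf12a was lower, at a log2 change of -1.30 (SE 0.47, adjusted p = 0.0417), as was Tnfrsf10b at -0.68 (SE 0.24, adjusted p = 0.0379), and Tnfrsf17 was higher by 1.23 (SE 0.44, adjusted p = 0.0398). These 3 lost the call when 1 of several mice was left out, with adjusted p of up to 0.073, 0.0747 and 0.108. Without s9 the log2 change of Tnfrsf12a was -1.23 (adjusted p = 0.0721) and that of Tnfrsf17 1.24 (adjusted p = 0.0562).

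Tnfrsf14, or HVEM, was higher by 1.05 (SE 0.32, adjusted p = 0.0178), at 1.51, 4.8 and 6.09 CPM as lowest, median and highest in remission mice. It also differed between libraries of the same mouse. In the originals of ZT0LU, ZT12RU and RX12RU it stood at 0.552, 0.586 and 1.42 CPM and in their repeats at 2.21, 2.03 and 5.53, a mean log2 difference of 1.82. The pair labelled RX11RU, whose repeat was nearer to mouse RX11LU, was left out of this mean. There Tnfrsf14 stood at 3.13 CPM in the original and 3.85 in the repeat, a log2 difference of 0.29. Of 14789 genes, 6 were higher in the repeats of the 3 mice by a mean of at least 1.82, Tnfrsf14 included. Genes lower in the repeats were not counted. The median size of the mean difference over genes, in either direction, was 0.11.

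**Figure D5:**
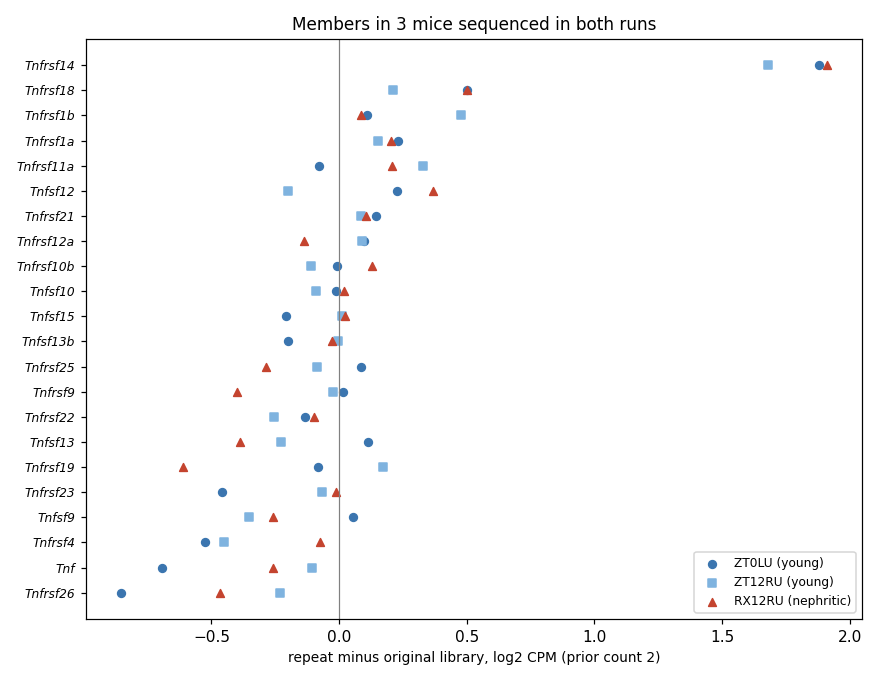
Difference in log2 CPM between the repeat and the original library of mice ZT0LU, ZT12RU and RX12RU, for 22 genes. Tnfrsf14 lies at 1.68 to 1.91 in the 3 mice, and the means of the other genes lie between -0.52 for Tnfrsf26 and 0.41 for Tnfrsf18.

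The sources used here do not say which libraries were sequenced together. If the repeats were sequenced with the remission mice, a run term can be fitted from the mice that have both libraries, and with it 0 of the 29 genes were higher and 0 lower. Tnfrsf14 then turned to -0.47 with 4 such mice and -0.91 with 3, leaving out RX11RU. The changes of Tnfsf10 (0.54 and 0.60) and Tnfrsf25 (-1.23 and -1.33) kept their size but not the call (adjusted p = 0.247 and 0.287 for Tnfsf10, 0.228 and 0.281 for Tnfrsf25). Without the assumption, a difference between libraries and remission cannot be told apart for Tnfrsf14 or any other gene, against nephritic or young mice.

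Tnf, Tnfsf13b, Tnfrsf1b, Tnfsf8 and Tnfrsf13c, all higher in nephritic than in young mice, were not called between remission and nephritic mice. Tnf gave -0.60 (SE 0.37, adjusted p = 0.224), and -1.08 (adjusted p = 0.0346) without the set covariate. Tnfsf13b gave -0.04 (SE 0.26) and Tnfrsf1b -0.03 (SE 0.24), Tnfsf8 -0.10 (SE 0.45) and Tnfrsf13c 0.88 (SE 0.57). The standard errors leave room for changes of either sign. Of the 10 NF-kB feedback and target genes 1 was higher and 3 were lower in remission than in nephritic mice, where 14.6% and 16.5% of all genes were.

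Against young mice of ZT0 and ZT12, 17 of 28 genes tested were higher in remission and 1 lower, and over 15982 genes 26% were higher and 25.6% lower, 51.7% in all. Of the ligands 6 of 9 were higher and of the receptors 11 of 19. In Tnfsf8, Tnfrsf1a and Tnfrsf1b every remission mouse stood above all 30 young mice, as in 2.03% of genes, and in none of the 28 did every remission mouse stand below (2.84%). For Tnfsf8 the lowest remission mouse, s1, had 0.199 CPM and the highest young mouse 0.173. In the shallowest remission library 3 reads stand at 0.225 CPM, so counting error could close this gap. This comparison shares the remission mice with the last and the young mice with the first. The 4 endothelial markers, all higher than in young mice, summed to medians of 208.2 CPM in young, 191 in nephritic and 332.1 in remission mice, and 3 of the 4 were higher than in nephritic mice. Their part in the levels of Tnfrsf1b was not tested.

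Tnfrsf13c had the largest change, 4.95 (SE 0.65, adjusted p = 2.44e-06), followed by Tnfsf8 at 4.33 (SE 0.60, adjusted p = 4.9e-06) and Tnfrsf13b at 3.36 (SE 0.49, adjusted p = 9.42e-06). Tnf was higher by 2.04 (SE 0.41, adjusted p = 0.000283), Tnfsf13b by 1.75 (SE 0.24, adjusted p = 4.61e-06) and Tnfrsf1b by 2.10 (SE 0.26, adjusted p = 1.26e-06). Tnfrsf10b (0.17, SE 0.12) and Tnfrsf18 (0.52, SE 0.24), both higher in nephritic mice, were not called here. Tnfsf9 was called, but not without s9 (0.63, adjusted p = 0.0679). Tnfrsf1a gave 0.58 (SE 0.06, adjusted p = 7.06e-08) and Tnfsf10 0.86 (SE 0.11, adjusted p = 1.35e-06). Of the 8 receptors under other symbols 7 were higher than in young mice, and of the 10 NF-kB feedback and target genes 8 were higher and 1 lower.

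With the run term 11 genes (4 mice) or 9 (3 mice) were higher and 0 lower. Tnf (2.39 and 2.61), Tnfsf13b (1.83 and 1.80), Tnfrsf1b (1.98 and 1.87) and Tnfsf10 (0.86 and 0.94) were among those called both times, while Tnfrsf14 went from 2.36 (SE 0.31) to 0.72 and 0.29 and lost its call. Tnfrsf25 fell by 0.65 against young mice (SE 0.25, adjusted p = 0.0332) and did not pass without the set covariate (adjusted p = 0.142).

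The remission mice differed widely among themselves. Mouse s10 was the lowest in Tnf, Tnfrsf13c, Tnfrsf13b, Tnfrsf1b, Tnfrsf4, Tnfrsf18 and Tnfsf14, and s14 the highest in Tnf, Tnfsf13b, Tnfsf8, Tnfrsf13c, Tnfrsf13b, Tnfrsf9 and Tnfrsf4. The B cell markers summed to 6.65 CPM in s10, the lowest, and 160.2 in s14, the highest, and the macrophage markers to 196.5 and 456.4, likewise the lowest and highest. Their part in these differences was not tested.

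Between ZT12 and ZT0 in remission mice, 0 of 26 genes passed in edgeR and 0 in DESeq2, and of all 14451 genes 0% passed in edgeR, where 1449 had an unadjusted p under 0.05, and 24 genes in DESeq2. Tnfrsf21 stood at 220.9, 239.3, 276.3 and 345.9 CPM in the mice of ZT0 and at 486.4, 507.6 and 679.8 in 3 mice labelled ZT12, with 216.6 in s9. The log2 change was 0.80 (SE 0.29, adjusted p = 0.487), and without s9 it was 1.03 (adjusted p = 0.0283), with 202 of all genes passing.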

How the data were processed

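Perfused whole kidneys were sequenced with reads of 150 bases. The authors deposited raw counts, a whole number of reads for each of 24538 gene symbols, 15 of which had empty cells and were left out. Their methods name a Burrows-Wheeler alignment of unique reads, the submitters' processing notes HISAT and mm10, and whether strand was used is not given in the sources used here. Groups and times came from the labels, sets from the study's supplement, with remission mice counted as Set 2.

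Genes with at least 100 reads over the mice of a fit were tested with edgeR 4.0.16 (TMM, quasi-likelihood test, Benjamini-Hochberg adjustment over all of them) in R 4.3.3. DESeq2 1.42.0 was an alternative. Scripts were tested on simulated data. Log2 CPM used a prior count of 2, and pairs 100000 permutations. Exon lengths came from GENCODE, positions and promoters from RefSeq (GRCm38.p6).

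The 32 genes, the lists and the tests were chosen with earlier results of these data known. Any of the 32 could be named. Values of each group were given for Tnf, Tnfsf13b, the 5 ligands and 10 receptors with the largest changes in nephritic mice, those lower, and those with the smallest p of the other tests. From each pathway list up to 3 genes were named, some after their values were seen.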

Additional observations from a re-analysis of the deposited data

Results flagged for a closer look

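In the 8 remission mice, 2 of 32 genes had a lowest mouse far from the others, s10 in both. Tnfrsf18 stood at 0.958 CPM in s10 against a median of 3.03, and Tnfrsf23 at 1.01 against 2.07. Chance alone gives such a mouse in about 1 in 20 groups.

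The time course differed between nephritic and young mice by a test of the difference itself in 5 genes, at adjusted p (edgeR) of 0.00112 for Tnfrsf17, 0.0294 for Tnfrsf21, 0.0406 for Tnfrsf4, 0.0421 for Tnf and 0.0492 for Tnfrsf13c.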

How the results depend on the processing

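No paired analysis was possible because the labels give the mice no replicate numbers shared between groups. The alternatives were RLE size factors, DESeq2, no filter, no set covariate, Set 2 alone, a 24 h cosine, a run term, repeat libraries and leaving out each mouse in turn, young mice for the test over time in young mice, nephritic mice for the other tests with nephritic but no remission mice, and remission mice for the rest. The run term from 3 mice, leaving out ZT8RU in other tests and pairs within times were chosen after seeing the data. For nephritic against young mice they gave 20 to 23 higher and 2 lower genes. Of the pairs 8 passed, and 6 within times. Of the values for single genes or pairs, 606 kept their direction and side of the threshold, 74 lost and 29 gained the call, and 2 reversed. Over time in young mice (8 genes) leaving out each mouse gave 4 to 9, with 4 without ZT8RU and 5 without ZT8LL. In nephritic mice (7 genes) DESeq2 gave 13 and the cosine 2. For the difference in time course (5 genes) no filter gave 2, Set 2 alone 3, the cosine 1, no ZT8RU 3, and leaving out each mouse 2 to 5, with 2 without any of HIL5RU, HIL5LL, RX11LU, RX12LU, RX11RL, RX1OLL, RX7LU, RX100, RX9RU, RX90 or RX8LU and 3 without CRS6LU, RX12RL, RX8RU, RX8LL or RX7LL. For remission against nephritic mice (3 higher, 3 lower) the run term gave 0 and 0 with either number of mice, repeat libraries 1 higher, and leaving out each mouse 1 to 3 lower, with 1 without s1, s10, s3 or s8. Tnfrsf14 reversed from 1.05 to -0.47 and -0.91 with the run term. Against young mice (17 higher, 1 lower) the run term gave 11 or 9 higher and 0 lower, no set covariate 0 lower, and leaving out each mouse 0 to 1 lower, with 0 without s1, s10 or s4. For ZT12 against ZT0 in remission (0 genes) leaving out each mouse gave 0 to 1 higher, with 1 without s9. Over all genes, calls over time in nephritic mice went from 3646 to 5646 (DESeq2), 1994 (no set covariate) and 362 (cosine), and for the time course from 1099 to 2186 (DESeq2), 1715 (Set 2) and 121 (cosine). The run term took the calls against nephritic mice from 5087 to 233 or 81 and against young mice from 8260 to 3277 or 1984. The cause was not tested. Genes of few reads, such as Tnfsf4, Tnfsf18 and Tnfrsf8, are limited by depth.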
